A study of Mus musculus with 14 samples.

Results

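The comparison described here sets whole ileum of untreated C57BL/6N mice at postnatal day 24 (P24, 4 libraries) against whole ileum of untreated mice of the same inbred strain at day 14 (P14, 4 libraries). These are 8 of the 14 libraries of the series. The other 6 came from mice injected with saline or recombinant mouse Il22 and took no part, except in an alternative fit of all 14 libraries. Genes were included with at least 1 TPM (transcript abundance corrected for transcript length, with an equal sum in each library) in at least 4 of the 8 libraries, which held for 14651 of 46855 genes. The labels call the mice wild type, name no transgene or other treatment for these 8 libraries and give the replicates as biological. Day 14 falls in the suckling period of mice and day 24 shortly after weaning, but the labels give age alone and say nothing of diet. Whole ileum holds epithelium, muscle, stroma, nerves and immune cells, and a lower level of a transcript in it can mean fewer cells of a type or less RNA per cell, which cannot be told apart here.

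A suckling mouse lives on milk, which is rich in fat and lactose. In the distal small intestine of suckling rodents, large lysosomal vacuoles of the enterocyte take up whole milk proteins by endocytosis and digest them inside the cell, and the neonatal Fc receptor carries maternal antibodies. At weaning the diet turns to starch and plant protein, the vacuolated cells are replaced, and the brush border takes over terminal digestion, while a denser microbiota settles in the ileum and antibody starts to come from the animal's own plasma cells.

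Age was the main difference between the libraries. The first principal component of log2(TPM + 1) held 81.0% of the variance, with all 4 P14 libraries on the negative side and all 4 P24 libraries on the positive side. limma called 8546 genes (58.3%) at an adjusted p under 0.05, of which 2146 (14.6%) were higher and 6400 (43.7%) lower at P24. Over all genes the median log2 fold change, P24 minus P14, was -0.25. Each library was also scaled so that its median gene matched the mean library, which by itself brings the median log2 fold change to about 0.01. On this median-scaled TPM 4200 genes (28.7%) were higher and 4202 (28.7%) lower. With TPM rescaled to protein-coding genes 1657 were higher and 8776 lower. The split by direction thus depends on the scaling, and which scale is right cannot be told from these values. Counts of gene groups are therefore read below against 14.6% higher and 43.7% lower, and given on median-scaled TPM where that changes them. The reference for median-scaled counts is 28.7% in either direction. Of the called genes, 715 rose and 1321 fell by at least 1 on the log2 scale (13.9% in all). At a log2 size of 5 or more there were 21 rises and 22 falls, and at 6 or more 10 rises and 9 falls. The 4 values of one age lay apart from the 4 of the other for 52.4% of genes.

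**Figure D1:**
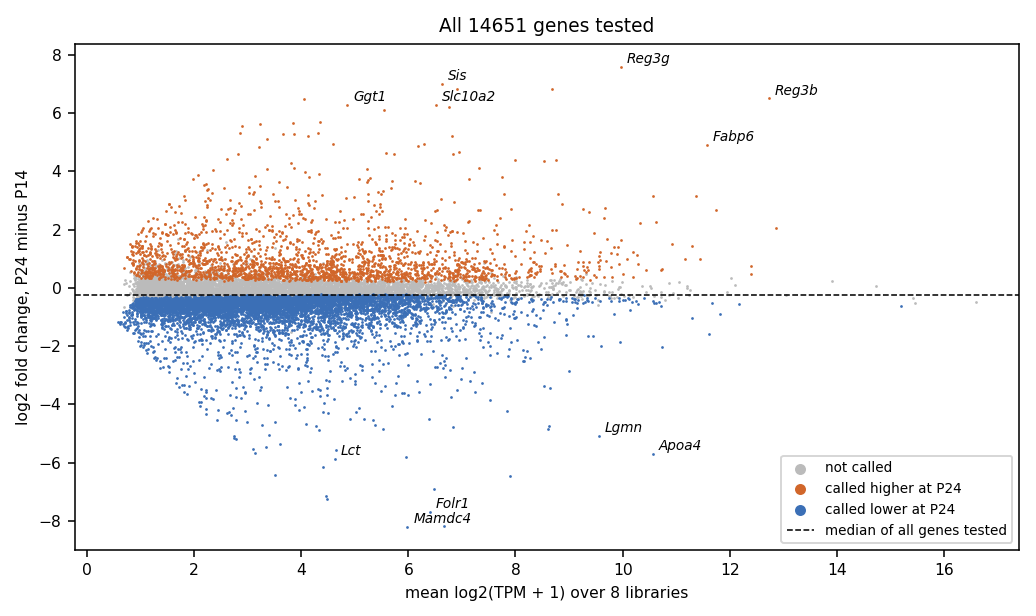
Each point is 1 of the 14651 genes tested, with its mean log2(TPM + 1) over the 8 libraries on the x axis and its log2 fold change, P24 minus P14, on the y axis. Orange points were called higher (2146) and blue points lower (6400) at P24, and the dashed line is the median of all genes at -0.25, a balance that becomes 4200 higher and 4202 lower on median-scaled TPM.

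Depth was lower in most P24 libraries. Reads recovered from the TPM ranged from 43.0 to 46.5 M per library at P14. At P24 they were at 44.7, 35.6, 42.0 and 38.5 M in libraries 1, 2, 6 and 8, so libraries 2, 6 and 8 lay below all P14 libraries. Some libraries of one age stood apart from each other before any comparison of age. The noncoding RNAs Rn7sk, Rmrp, Rpph1 and Gm23935 together took 23.3 to 32.9% of the TPM at P14 and 16.1 to 21.4% at P24, which lowers all other genes more at P14, and Gm23935 alone reached 121700 TPM in P14 library 5 against 36020 to 50340 TPM in the other P14 libraries. Xist, the RNA of the inactive X chromosome, was at 0.111, 0.16, 47 and 40.5 TPM in P14 libraries 1, 2, 4 and 5 and at 0.107, 36.7, 34.9 and 73 TPM in P24 libraries 1, 2, 6 and 8, the order used for all values below. The Y-linked Ddx3y had the opposite pattern (26.4, 26.6, 0.0562 and 0.0314 and 16.8, 0.0215, 0.0677 and 0.0364 TPM), so 2 of 4 libraries at P14 and 1 of 4 at P24 carried Y-linked RNA and the sexes were unevenly spread over the ages. With the level of Xist as a covariate 8102 genes were called. The labels do not name the sex.

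Gata4, a transcription factor of the proximal small intestine that is low in the distal ileum, also parted the libraries. It was at 0.119, 0.378, 6.57 and 7.51 TPM at P14 and at 0.235, 1.36, 0.226 and 0.145 TPM at P24, and with 3 libraries at 1 TPM or more it lay just outside the inclusion rule, as Nox1, an epithelial NADPH oxidase, with 4 such libraries, lay just inside. The P14 libraries 4 and 5 were thus high in Gata4 and in Xist at once, and these properties cannot be told apart within that age. Fabp1, a fatty acid binding protein that is higher in the proximal intestine, was at 0.229, 1.94, 2.29 and 225 TPM at P14 and 8.46, 7.29, 7.96 and 9.57 TPM at P24, and P14 library 5 alone lay above the P24 range. Fabp1 was not called (adjusted p = 0.81, range over the alternatives 0.00035 to 0.996, given below as the range wherever an alternative changed a call), and it was called without P14 library 5. Leaving out the 3 libraries with Gata4 above 1 TPM gave 6959 calls. The ileal genes of a marker list stood far above 0 in every library, with 4 of 6 members called higher and 1 lower, and of 5 hepatocyte markers tested 4 were called lower, though the defining gene Alb was at 0.0573 to 0.181 TPM at P14 and 0.0892 to 0.141 TPM at P24. The 9 exocrine pancreas markers, none of which passed the inclusion rule, summed to 1.16, 1.41, 3.36 and 14.6 TPM at P14 and 0.513, 0.219, 0.371 and 0.202 TPM at P24. Ctrb1, chymotrypsinogen, held most of the sum in P14 libraries 2, 4 and 5 (0.381, 0.807, 2.63 and 14.1 TPM at P14 and at most 0.149 TPM at P24), and Cela2a and Amy2a5 were at 0 in all 8. The summed TPM of 10 B and plasma cell markers was 27.4, 3.63, 6.91 and 27.5 at P14 and 178.2, 42.0, 28.0 and 136.4 at P24. Libraries 1 and 5 at P14 and 1 and 8 at P24 held the most of their age, and the second principal component (5.67% of the variance) set the same 4 apart from the others. These 4 are called lymphocyte-rich below, a name that rests on the B and plasma cell markers alone. A fit without them keeps only libraries 2 and 4 at P14 and 2 and 6 at P24. Whether a call lost in that fit was lost through the smaller number of libraries was not tested.

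**Figure D2:**
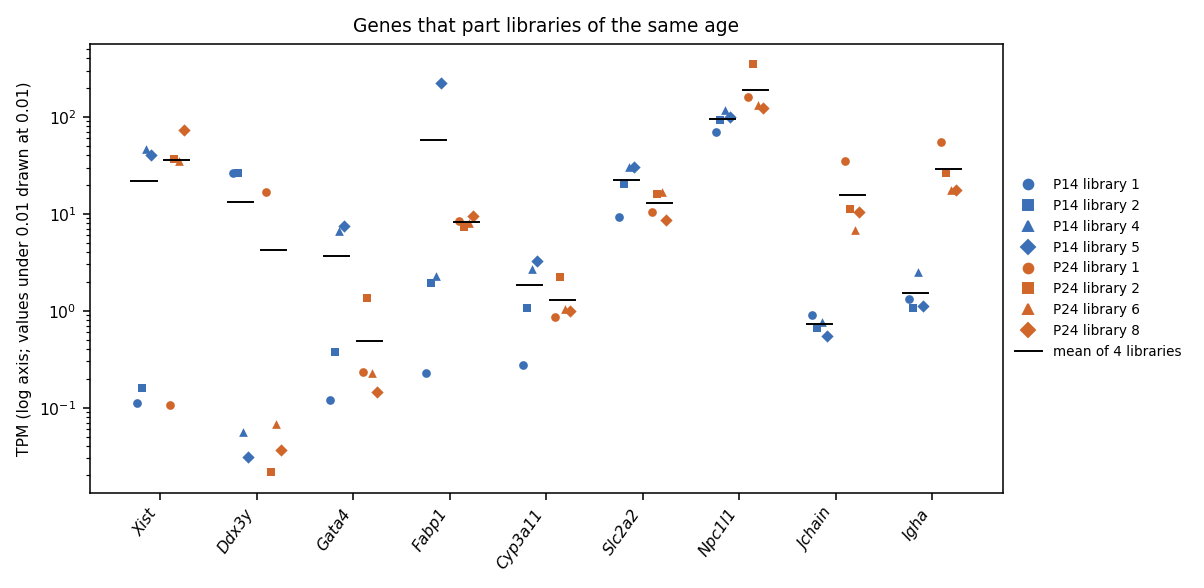
TPM on a log axis for 9 genes, 1 point per library, P14 in blue and P24 in orange, with the mean of 4 libraries as a black line. Xist and Ddx3y divide each age into libraries with and without Y-linked RNA, Gata4 is above 1 TPM in P14 libraries 4 and 5 and P24 library 2, and Fabp1 reaches 225 TPM in P14 library 5 alone.

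Disaccharidases of the brush border, which split the sugars of milk and of starch, moved in opposite directions. Of 4 tested, 3 rose and 1 fell, with a median log2 fold change of 2.80. Lct, lactase-phlorizin hydrolase (ENSMUSG00000026354.8, chromosome 1, 128284756 to 128328318, minus strand, protein coding, GRCm38), was at 46.7, 138, 404 and 468 TPM at P14 and at 1.89, 4.48, 1.65 and 1.68 TPM at P24. The groups did not overlap, but the P14 values were widely spread, and the highest of them were in libraries 4 and 5, which were high in Gata4. The part of Gata4 in the Lct level was not tested. Sis, sucrase-isomaltase (ENSMUSG00000027790.14, chromosome 3, 72888557 to 72967863, minus strand, protein coding), was at 6.54, 8.63, 7.81 and 7.95 TPM at P14 and at 1191, 1748, 999 and 749.6 TPM at P24. Here the P14 libraries were close together, all P24 libraries lay far above them, and the P24 mean was 152 times the P14 mean. Treh, the trehalase gene, rose from 3.21 ± 0.355 to 66.7 ± 13.4 TPM (mean ± SD over 4 libraries of each age, log2 fold change of 3.99 with an SE of 0.13, adjusted p = 6.5e-10). Mgam, maltase-glucoamylase, was already at 224 ± 43.9 TPM at P14 and rose least, to 719 ± 342 TPM (log2 fold change of 1.60 with an SE of 0.26, adjusted p = 0.000268).

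Lct (log2 fold change of -5.85 with an SE of 0.59, adjusted p = 7.29e-06) and Sis (log2 fold change of 7.01 with an SE of 0.21, adjusted p = 2.32e-10) moved in opposite directions in the same tissue, and their promoters are shown because the promoters of both genes are known to bind HNF1, CDX and GATA factors. The sequences are the 250 bases before the RefSeq start of each gene, build GRCm38.p6, both on the minus strand and written 5′ to 3′ along the gene, chr3:72967864-72968113 for Sis and chr1:128328319-128328568 for Lct. Capitals mark matches on either strand to one of 3 short motifs. The HNF1 half-site was searched as GTTAAT. For the site of the CDX factors the letters were TTTAT. The third, a site of the GATA factors, was AGATAA. The capitals run together where a CDX match adjoins its own reverse in Sis and where a CDX and a GATA match overlap in Lct.
Sis: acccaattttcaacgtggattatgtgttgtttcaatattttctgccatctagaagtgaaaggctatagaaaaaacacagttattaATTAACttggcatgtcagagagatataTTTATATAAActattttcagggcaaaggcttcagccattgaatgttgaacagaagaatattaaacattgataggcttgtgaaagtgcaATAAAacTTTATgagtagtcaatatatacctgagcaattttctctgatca
Lct: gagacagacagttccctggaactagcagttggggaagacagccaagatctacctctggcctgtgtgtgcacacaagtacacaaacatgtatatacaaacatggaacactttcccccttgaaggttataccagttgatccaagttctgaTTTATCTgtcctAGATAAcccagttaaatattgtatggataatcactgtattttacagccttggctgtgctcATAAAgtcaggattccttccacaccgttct
The Sis window held 1 HNF1, 4 CDX and 0 GATA matches, and the Lct window 0, 2 and 2. Among 27025 RefSeq promoters of the same length, 6.52% held the HNF1 motif, 38.1% the CDX motif and 10.3% the GATA motif, and the shares were 4.10%, 24.1% and 6.15% among the 10075 promoters of genes tested. Promoters of called genes with a log2 fold change of 2 or more (156) held them in 7.69%, 46.2% and 10.3% of cases, and those with -2 or less (225) in 7.56%, 27.6% and 10.2%. A match is a description of letters and not a bound site.

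Hexose uptake and fructose use rose with the disaccharidases. Of 11 genes tested, 7 rose and 1 fell, with a median of 1.46. Slc5a1, the sodium-glucose cotransporter SGLT1, was at 101, 161, 177 and 162 TPM at P14 and 541, 683, 657 and 461 TPM at P24 (log2 fold change of 1.97 with an SE of 0.18, adjusted p = 3.31e-06). Slc2a5, the fructose transporter GLUT5, was at 1.06, 1.16, 1.89 and 2.02 TPM and then at 14.5, 16.5, 16 and 8.84 TPM (log2 fold change of 2.55 with an SE of 0.20, adjusted p = 7.77e-07), with P24 library 8 lowest in both transporters. Khk, which phosphorylates fructose, rose with it from 40.8 ± 5.37 to 115 ± 22.5 TPM (log2 fold change 1.46). Slc5a4a, a glucose transporter relative, had the largest rise of the list (log2 fold change 2.60) from under 0.5 TPM. Slc2a2, the basolateral exporter GLUT2, did not pass: it was at 9.32, 20.2, 30.2 and 30.4 TPM at P14 and 10.5, 15.8, 16.8 and 8.66 TPM at P24 (adjusted p = 0.0944, range 0.00252 to 0.585), and it was called lower without P14 library 1, the lowest of that age. The one fall, Slc2a1 (log2 fold change -0.45), was not called on median-scaled TPM or without P14 library 2 (range 0.00118 to 0.205).

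Glucose production went the other way. Of 7 gluconeogenesis genes, 5 fell and 1 rose (median -1.28). Pck1, the gate-keeping carboxykinase, was at 134, 233, 303 and 286 TPM at P14 and at 9.32, 12.9, 21.1 and 30.3 TPM at P24 (log2 fold change of -3.69 with an SE of 0.33, adjusted p = 2.74e-06). Fbp1, fructose bisphosphatase, went from 409 ± 74.1 to 35.2 ± 8.82 TPM (log2 fold change -3.51), and G6pc, the phosphatase that frees glucose, from 85.9 ± 26.4 to 18 ± 2.83 TPM (-2.16). All 3 had groups that did not overlap. Pcx, pyruvate carboxylase, which also feeds the citrate cycle, was the member that rose (4.94 ± 0.955 to 31.2 ± 8.98 TPM, log2 fold change 2.42). Of 15 glycolysis genes, 11 rose and 1 fell (12 and 1 on median-scaled TPM, median 0.67), led by Hk2, an inducible hexokinase (2.09), and the fall was in Pfkm, the muscle form of phosphofructokinase (-0.87).

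Genes of peptide digestion at the cell surface rose. Of 12 brush border peptidase and peptide transport genes, 8 rose and 1 fell (median 1.40). Dpep1, a membrane dipeptidase, was at 20.3, 21.9, 13.1 and 15.9 TPM at P14 and at 793, 709, 666 and 592 TPM at P24 (log2 fold change of 5.22 with an SE of 0.15, adjusted p = 2.23e-10). Anpep, aminopeptidase N, was at 112, 155, 164 and 149 TPM and then at 1274, 1890, 1205 and 1156 TPM (log2 fold change of 3.23 with an SE of 0.17, adjusted p = 2.78e-08), with P24 library 2 above the other P24 libraries. Mme, neprilysin, went from 0.178 to 0.329 TPM across the P14 libraries up to 14.4 to 34.7 TPM across the P24 libraries, and Slc15a1, the peptide transporter PEPT1, from 51.8 to 71.8 TPM across the P14 libraries up to 214 to 247 TPM across the P24 libraries (log2 fold changes 4.06 and 1.92). The group was not uniform. Ace, angiotensin-converting enzyme, fell from 214 ± 50.4 to 67.8 ± 19.4 TPM (-1.65), and Mep1a, a subunit of the metalloprotease meprin, was at 888 ± 221 and 650.5 ± 92.1 TPM (adjusted p = 0.0539). Mep1a was called lower without P14 library 5 or P24 library 2 (range 0.00343 to 0.551).

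Amino acid transporters moved in both directions, with 6 of 18 called higher and 5 lower (10 and 4 on median-scaled TPM) and a median of 0.23. Slc7a15, of the Slc7 transporter family, rose most (log2 fold change 2.75), and Slc6a14, a broad importer of neutral and cationic amino acids, was at 64.2, 53.6, 12.1 and 36.9 TPM at P14 and 166, 187, 321 and 255 TPM at P24 (log2 fold change of 2.63 with an SE of 0.41, adjusted p = 0.000238). Slc1a1, the glutamate importer, rose from 13 ± 3.08 to 44.5 ± 5.61 TPM (1.72). Slc7a8, a basolateral exchanger, fell most (-1.49). Slc6a19, the main apical importer of neutral amino acids, reached a log2 fold change of only 0.33 (adjusted p = 0.0379, range 0.00117 to 0.191), its groups overlapped, and the call was lost without P14 library 1 or 5 or P24 library 1, 2 or 6. Slc7a9, part of the cystine importer, did not pass (237 ± 23.2 and 254 ± 22.4 TPM, adjusted p = 0.43, range 0.00659 to 0.749), though it was called higher on median-scaled TPM.

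The endocytic machinery of the suckling enterocyte fell together. Of 15 apical endocytosis genes, 12 fell and 0 rose (12 and 2 on median-scaled TPM), with a median of -1.32. Mamdc4, an endosomal protein of these cells, was at 914, 1184, 1276 and 993 TPM at P14 and 2.48, 3.02, 2.23 and 3.1 TPM at P24 (log2 fold change of -8.20 with an SE of 0.13, adjusted p = 4.08e-12). On log2(TPM + 1), a scale that understates changes of low genes, this was the deepest fall of all protein-coding genes with separate groups. Dab2, the clathrin adaptor of the cubilin receptor, was at 121, 112, 98.1 and 98.5 TPM at P14 and at 2.19, 2.96, 2.82 and 2.94 TPM at P24 (log2 fold change of -4.86 with an SE of 0.11, adjusted p = 4.36e-11). Both genes varied little within each age. Amn, the membrane anchor of cubilin, fell from 461 ± 50.9 to 127 ± 12.1 TPM (log2 fold change -1.85), and Lrp2, megalin, from 2.63 ± 1.41 to 0.165 ± 0.0551 TPM (-1.56), higher at P14 in libraries 4 and 5. Cubn itself, the receptor that Amn and Dab2 serve, was not called: it was at 100.1, 131, 113 and 124 TPM at P14 and 79.1, 139.7, 57.2 and 81.6 TPM at P24 (adjusted p = 0.0904, range 0.00194 to 0.615). P24 library 2 was above all P14 libraries, and without it Cubn was called lower. Fcgrt, the neonatal Fc receptor, was at 765, 1061, 1219 and 2042 TPM at P14 and 136, 115, 110.4 and 98.3 TPM at P24 (log2 fold change of -3.37 with an SE of 0.24, adjusted p = 3.68e-07), highest at P14 in library 5.

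Lysosomal hydrolases had the lowest median of the 32 lists. Of 39 acid hydrolases, 35 fell and 1 rose, with a median of -2.10, and on median-scaled TPM 34 fell and 3 rose. Their summed level was 15995 to 21345 TPM at P14 and 2281 to 2681 TPM at P24. Lgmn, the asparaginyl endopeptidase legumain, was at 4189, 5296, 4385 and 3691 TPM at P14 and 107, 155, 137 and 121 TPM at P24 (log2 fold change of -5.07 with an SE of 0.14, adjusted p = 1.93e-10). Ctsl, the cysteine protease cathepsin L, was at 1195, 1735, 2487 and 3346 TPM and then at 73.9, 80.9, 70.3 and 76.4 TPM (log2 fold change of -4.74 with an SE of 0.25, adjusted p = 2.78e-08). The P24 values of Ctsl were close together, whereas at P14 the libraries high in Gata4 were above the others. The dipeptidase Dpp7 went from 169 to 254 TPM across the P14 libraries down to 6.33 to 7.96 TPM across the P24 libraries (log2 fold change -4.71). The glycosidases Glb1, beta-galactosidase (-3.56), and Neu1, a sialidase (-1.84), fell by smaller steps. Ctsc, a cathepsin of immune cell granules and epithelium, was the exception and rose from 23.9 ± 2.69 to 49.9 ± 6.47 TPM (log2 fold change of 1.03 with an SE of 0.11, adjusted p = 1.44e-05).

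The lysosomal membrane followed its contents. Of 21 membrane and proton pump genes, 18 fell and 0 rose, with a median of -1.45 and the same counts on median-scaled TPM. Mcoln3, a cation channel, was at 221, 310.2, 293 and 236 TPM at P14 and 0.795, 0.985, 0.711 and 0.927 TPM at P24 (log2 fold change of -7.15 with an SE of 0.12, adjusted p = 4.08e-12). Slc17a5, the sialic acid exporter, fell from 598 ± 90.0 to 21 ± 4.79 TPM (log2 fold change -4.78), and Npl, the lyase that breaks down freed sialic acid, from 985 ± 126 to 7.65 ± 3.58 TPM (-6.91). Lamp1, the general lysosomal membrane protein, fell less (-1.64), and Tfeb, a transcription factor of lysosomal genes, was at 13.1, 16.9, 18.4 and 13.1 TPM at P14 and 4.4, 3.23, 3.6 and 4.06 TPM at P24 (log2 fold change of -1.76 with an SE of 0.13, adjusted p = 7.09e-07). The summed macrophage and dendritic cell markers, another cell type rich in lysosomes, were at 129.6 to 196.7 TPM at P14 and 147.3 to 278.7 TPM at P24, so the ages overlapped in this sum. The overlap rested on Lyz2, the one marker called higher, for Csf1r, Cd68 and Cx3cr1 were called lower, and without Lyz2 the other 7 summed to 93.7 to 117 TPM at P14 and 40.4 to 53.7 TPM at P24. Their part in the lysosomal falls was not tested.

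**Figure D3:**
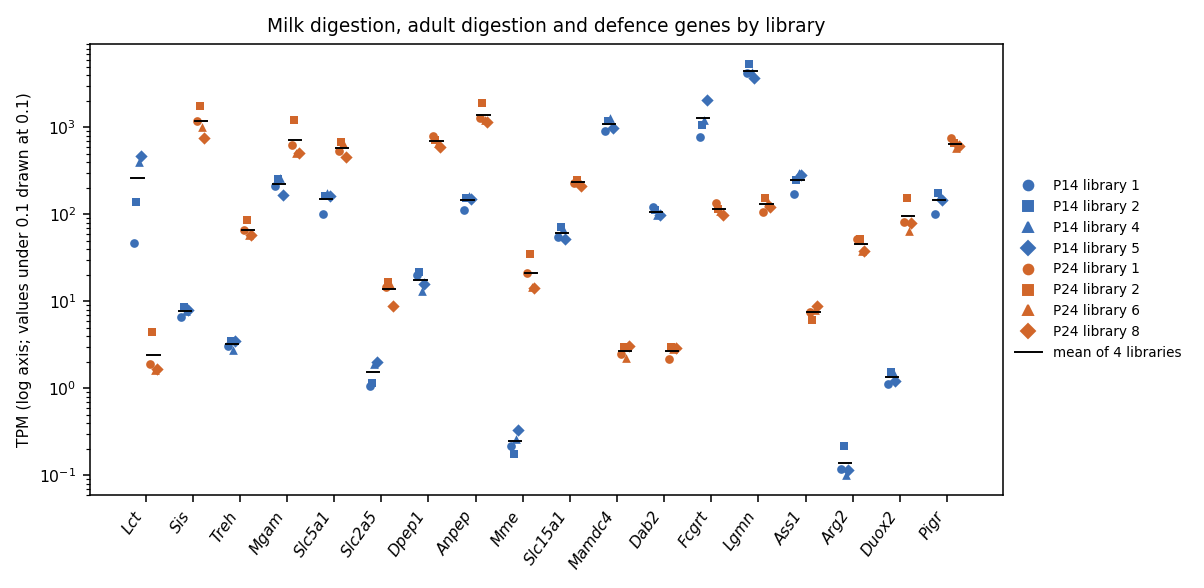
TPM on a log axis for 18 genes of milk digestion, adult digestion and defence, 1 point per library, P14 in blue and P24 in orange, with the mean of 4 libraries as a black line. The ages do not overlap for any of the 18 genes, and the widest spread within an age is that of Lct at P14, from 46.7 to 468 TPM.

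Arginine production, which the suckling enterocyte carries out because milk is poor in arginine, fell at most steps. Of 14 genes, 10 fell and 2 rose (8 and 3 on median-scaled TPM), with a median of -0.69. Ass1, argininosuccinate synthase, was at 173, 249.9, 297 and 286 TPM at P14 and 7.48, 6.12, 7.99 and 8.83 TPM at P24 (log2 fold change of -4.85 with an SE of 0.16, adjusted p = 7.21e-10). Asl, the lyase that follows, fell from 75.4 ± 13.3 to 10.2 ± 0.778 TPM (log2 fold change -2.76), Cps1, carbamoyl phosphate synthase, from 882 ± 189 to 282 ± 19.4 TPM (-1.62), and Aldh18a1, which starts proline and ornithine synthesis, from 292 ± 51.3 to 40.7 ± 8.42 TPM (-2.82). Otc, which makes citrulline between Cps1 and Ass1, stood at 41.9 ± 6.17 and 43.2 ± 0.944 TPM (adjusted p = 0.674, range 0.00552 to 0.822). It was called higher on median-scaled TPM. Arg2, the mitochondrial arginase that breaks arginine down, went from 0.118, 0.219, 0.102 and 0.114 TPM to 52.7, 52.3, 38.2 and 38.4 TPM (log2 fold change of 5.33 with an SE of 0.13, adjusted p = 6.03e-11).

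Transcription factors of enterocyte maturation had a median close to that of all genes. Of 26, 6 rose and 9 fell (9 and 6 on median-scaled TPM), and the median was -0.11. Prdm1, BLIMP1, a repressor that marks the suckling epithelium, was at 28.1, 40.6, 44 and 29.1 TPM at P14 and 7.26, 10.6, 6.61 and 5.55 TPM at P24 (log2 fold change of -2.11 with an SE of 0.19, adjusted p = 2.85e-06). Maf, a large Maf factor, was at 55.2 ± 11.1 and 55.5 ± 5.45 TPM (adjusted p = 0.886, range 0.0427 to 0.975) and was called higher with voom on recovered reads. Creb3l3, a factor of lipid metabolism, fell most (-2.32), and Vdr, the vitamin D receptor, rose most, from 9.76, 14.6, 14.3 and 13.8 to 42.1, 47.1, 47.8 and 47.1 TPM (log2 fold change of 1.75 with an SE of 0.12, adjusted p = 3.76e-07). Cdx2, the master factor of intestinal identity, stood at 174 ± 27.8 and 158 ± 17.5 TPM (adjusted p = 0.379, range 0.0166 to 0.72) and was called lower with TPM rescaled to protein-coding genes and without the lymphocyte-rich libraries. Hnf4a, a factor of enterocyte genes, had a log2 fold change of 0.43 (adjusted p = 0.0379, range 0.00194 to 0.174), with overlapping groups and the call lost without P14 library 1 or 5 or P24 library 1, 2 or 6. Isx, a repressor of carotenoid uptake and cleavage, fell (-0.50), but this call was lost on median-scaled TPM (range 9.66e-05 to 0.134).

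Glucocorticoids rise in rodents before weaning and hasten gut maturation. Of 13 genes of the receptor and its targets, 5 rose and 4 fell (7 and 2 on median-scaled TPM), with a median of 0.21. Nr3c1, the receptor, was at 61.7 ± 9.19 and 67.2 ± 8.45 TPM (adjusted p = 0.416, range 0.00601 to 0.974) and was called higher on median-scaled TPM. Hsd11b2, which inactivates corticosterone, rose from 4.16 ± 0.831 to 10.6 ± 1.2 TPM (log2 fold change of 1.17 with an SE of 0.13, adjusted p = 1.78e-05). The targets did not move as one. Fkbp5, a chaperone of the receptor, was at 1.57, 3.4, 2.93 and 3 TPM at P14 and 4.14, 4.74, 16.4 and 16.4 TPM at P24 (log2 fold change 1.41, adjusted p = 0.0083, range 0.00187 to 0.0666), high in P24 libraries 6 and 8 alone, and its call was lost without the lymphocyte-rich libraries of each age. Tsc22d3, GILZ, fell from 41.4, 57.6, 43.9 and 45.6 TPM to 13.4, 19.8, 28.6 and 33.6 TPM (-1.02), and was again higher in P24 libraries 6 and 8. Nfkbia, an inhibitor of NF-kappaB, rose most (1.42) and Pdk4, a fasting kinase, fell most (-2.19).

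Fat handling was split between carriers. Fabp6, the ileal bile acid carrier, was at 346, 1181, 395 and 605 TPM at P14 and 14370, 21410, 16880 and 14890 TPM at P24, and Fabp2, the intestinal fatty acid carrier, at 623, 843, 840.1 and 1422 and 8988, 8572, 7794 and 6440 TPM (log2 fold changes 4.90 and 3.15). Of 7 fatty acid binding protein genes, 3 rose and 1, Fabp7, fell (-1.37), and 4 rose on median-scaled TPM. Of 23 genes of fat uptake and chylomicron assembly, 6 rose and 9 fell (8 and 8 on median-scaled TPM), with a median of -0.26, close to that of all genes. Apoa4, a lipoprotein made in response to dietary fat, was at 7774, 10680, 11670 and 14620 TPM at P14 and 400.4, 369, 116 and 113 TPM at P24 (log2 fold change of -5.69 with an SE of 0.40, adjusted p = 3.5e-07). Apoa1, which shares its gene cluster, stood at 9337 ± 1824 and 7903 ± 1057 TPM (adjusted p = 0.295, range 0.000141 to 0.929) and was called lower with quantile normalisation. Apobec1, the editing enzyme of the apolipoprotein B messenger, rose most of the list (0.93). Npc1l1, the cholesterol importer, rose by 0.89 (adjusted p = 0.0182, range 0.00414 to 0.0838), but P24 library 2 at 348 TPM held much of that. The call was kept without P24 library 2 and lost without the lymphocyte-rich libraries, a fit in which P24 library 2 remains.

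Genes of surface defence rose nearly as a block. Of 20 epithelial oxidase and defence genes, 17 rose and 1 fell (median 1.72). Duox2, the oxidase that makes hydrogen peroxide at the apical surface, was at 1.14, 1.56, 1.53 and 1.22 TPM at P14 and 80.9, 154, 65.2 and 78.7 TPM at P24 (log2 fold change of 5.27 with an SE of 0.22, adjusted p = 3.36e-09). Its maturation factor Duoxa2 was at 2.23, 1.69, 1.74 and 1.74 TPM and then at 154, 179.6, 114 and 143 TPM (log2 fold change of 5.69 with an SE of 0.13, adjusted p = 4.36e-11). Both were under 2.5 TPM in every P14 library and above 60 TPM in every P24 library. Nos2, which makes nitric oxide, went from 0.797 to 1.27 TPM across the P14 libraries up to 58.7 to 126 TPM across the P24 libraries (log2 fold change 5.30) and Gpx2, the glutathione peroxidase of gut epithelium, from 47.6 to 68.1 TPM across the P14 libraries up to 623 to 949.5 TPM across the P24 libraries (3.79). Nox1 rose at a lower level, from 0.271 ± 0.141 to 2.37 ± 0.827 TPM (1.37). Ltf, the iron-binding protein lactoferrin, was the one that fell (-1.61). The lectins Reg3b and Reg3g alone held 0.0521 to 0.107% of all TPM at P14 and 6.53 to 9.79% at P24, and defensin genes 0.518 to 0.804% and 2.47 to 2.62%, which lowers the share of all other genes at P24.

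Antibody genes rose as well. Of 11 genes of antibody transport and IgA, 5 rose and 0 fell (median 1.00). Pigr, the epithelial receptor that carries IgA into the lumen, was at 102, 176, 162 and 148 TPM at P14 and 746, 660.3, 577 and 612 TPM at P24 (log2 fold change of 2.16 with an SE of 0.16, adjusted p = 5.46e-07). Jchain, which joins IgA into dimers, was at 0.907, 0.657, 0.774 and 0.551 and 34.8, 11.1, 6.84 and 10.5 TPM, and Igha, the IgA heavy chain, at 1.32, 1.07, 2.54 and 1.12 and 54.7, 26.1, 17.7 and 17.7 TPM (log2 fold changes 3.03 and 3.46). P24 library 1 was highest in all 3, and it was also one of the libraries richest in B and plasma cell markers. Jchain and Igha are themselves among those markers, so for these genes the match is not separate evidence. Of 18 chemokine and cytokine genes, 7 rose and 4 fell (9 and 4 on median-scaled TPM), with a median of 0.26. Ccl25, which draws lymphocytes to the small intestine, rose from 119.8 ± 10.7 to 338 ± 24.1 TPM (log2 fold change of 1.49 with an SE of 0.10, adjusted p = 1.9e-07), and Ccl28, which draws IgA plasma cells, from 11.8 ± 1.9 to 23.8 ± 1.93 TPM (0.96). Il18, an epithelial cytokine, rose most (1.83) and Ccl24, an eosinophil chemokine, fell most (-1.28). Ccl20, the chemokine of the epithelium over lymphoid follicles, overlapped between the ages (18.2, 14, 9.53 and 9.58 and 6.17, 4.73, 12.7 and 20.9 TPM, adjusted p = 0.434).

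Sensors of bacteria moved in both directions, with a larger share of rises and a smaller share of falls than among all genes. Of 23 tested, 9 rose and 5 fell (15 and 5 on median-scaled TPM), with a median of 0.13. Cd14, the lipopolysaccharide co-receptor, rose from 2.58 ± 0.448 to 15.1 ± 1.17 TPM (log2 fold change of 2.18 with an SE of 0.12, adjusted p = 3.32e-08), and Pglyrp1, a peptidoglycan-binding protein, from 19.9 ± 2.13 to 88.5 ± 8.41 TPM (2.10). Tnfaip3, the NF-kappaB inhibitor A20, rose by 1.00 and Nlrp6, an inflammasome sensor, by 0.59. Tlr5, the flagellin receptor, fell from 3.2, 3.13, 3.46 and 3.2 TPM to 0.602, 0.631, 0.662 and 0.651 TPM (log2 fold change of -1.37 with an SE of 0.11, adjusted p = 1.02e-06). Alpi, the alkaline phosphatase that detoxifies lipopolysaccharide, fell most, from 1165, 1727, 1811 and 1531 to 383, 471, 368 and 336 TPM (log2 fold change of -1.99 with an SE of 0.15, adjusted p = 8.14e-07). Of 18 complement genes, 4 rose and 2 fell (10 and 2 on median-scaled TPM), with a median of 0.06. C3, the central component, rose from 20.1 ± 7.28 to 54.2 ± 12.6 TPM (1.42) and C2, a protease of the classical pathway, fell from 43.1 ± 8.12 to 5.84 ± 1.09 TPM (-2.68). C4b rose by 0.58 (adjusted p = 0.0183, range 0.00288 to 0.113), a call lost without P14 library 2. Cfd, adipsin, was at 27.3, 0.242, 13.7 and 12 TPM at P14 and 113, 204, 152 and 157 TPM at P24 (4.09), and adipocytes make it. Cfd is itself 1 of 7 adipocyte markers, whose sum was 114.4 to 170.3 TPM at P14 and 280.4 to 504.8 TPM at P24, with 5 called higher and Cidec called lower. Without Cfd and Cidec the other 5 summed to 1.65 to 51.7 TPM at P14 and 125.6 to 251.8 TPM at P24. Their part in the Cfd level was not tested.

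**Figure D4:**
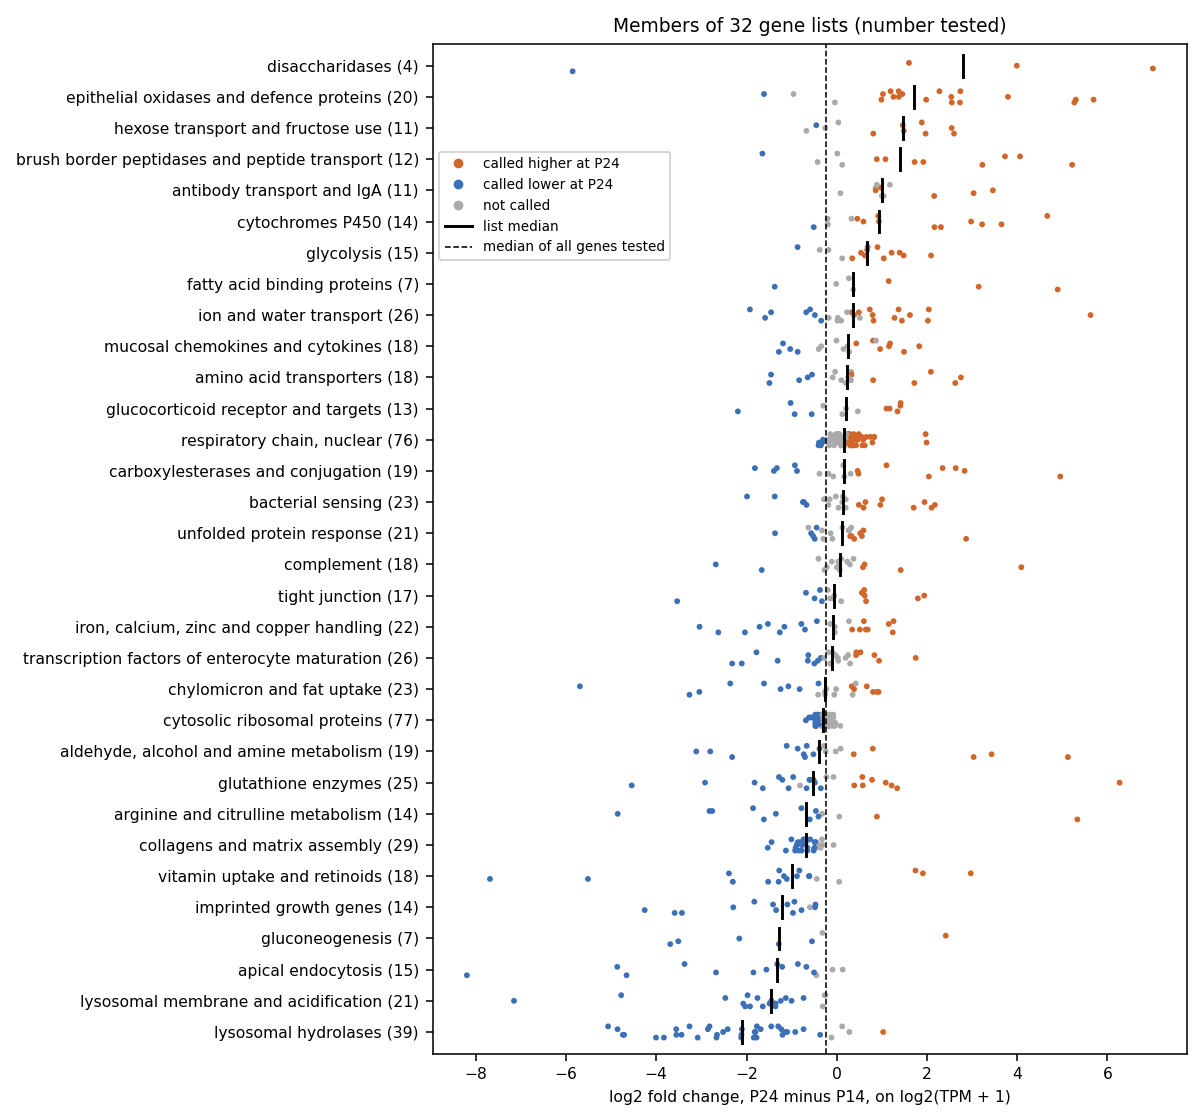
Log2 fold changes (P24 minus P14) of the tested members of 32 gene lists, ordered by list median, 1 point per gene, orange if called higher, blue if called lower and grey if not called. Lysosomal hydrolases lie lowest with a median of -2.10 and disaccharidases highest with 2.80, against a median of all genes of -0.25 (dashed line), a reference that moves to 0.01 on median-scaled TPM.

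The barrier and the transport of salt and water changed in composition. Of 17 tight junction genes, 7 rose and 5 fell (8 and 2 on median-scaled TPM), with a median of -0.05. Cldn15, a pore-forming claudin for sodium, was at 44.6, 62, 71.5 and 52.7 TPM at P14 and 234, 265, 226 and 169.7 TPM at P24 (log2 fold change of 1.94 with an SE of 0.16, adjusted p = 1.52e-06). Cldn8, a sealing claudin, went the other way, from 163, 192, 155 and 110.0 to 8.53, 10.5, 13.9 and 17.5 TPM (log2 fold change of -3.54 with an SE of 0.21, adjusted p = 7.65e-08). Cldn2, another cation pore, fell by only 0.33 on the log2 scale, its groups overlapped and the call was lost on median-scaled TPM and without P14 library 2 or 4 or P24 library 6 or 8 (range 0.000324 to 0.823). Cldn4 did not pass (300.2 ± 41.5 and 294 ± 77.7 TPM, adjusted p = 0.8). Of 26 ion and water transport genes, 13 rose and 7 fell (17 and 4 on median-scaled TPM), with a median of 0.36. Car4, the carbonic anhydrase of the brush border, was at 0.473, 0.318, 0.322 and 0.228 TPM at P14 and 66.2, 66.6, 67.4 and 59.2 TPM at P24 (log2 fold change of 5.62 with an SE of 0.10, adjusted p = 5.8e-12). Cftr, the chloride channel, rose from 17.3 ± 2.33 to 31.3 ± 4.91 TPM (0.82), and Slc26a3, a chloride and bicarbonate exchanger, by 0.49. The Slc26a3 call was lost with TPM rescaled to protein-coding genes and without the 3 libraries high in Gata4 (range 0.000868 to 0.0564). Slc9a3, the sodium and proton exchanger NHE3, was at 4.25, 8.82, 14.2 and 15.4 TPM at P14 and 10.4, 19.1, 11.9 and 16.9 TPM at P24 and did not pass (adjusted p = 0.187, range 0.0303 to 0.531), though it was called higher without the 3 libraries high in Gata4. Guca2a, guanylin, fell from 6203, 6312, 4852 and 4657 TPM to 1948, 1773, 1747 and 1794 TPM (log2 fold change of -1.59 with an SE of 0.14, adjusted p = 2.2e-06), and Prkg2, the kinase at the end of its signal, fell most of the list (-1.92). Guca2b, uroguanylin, fell by less (-0.49), and on median-scaled TPM it was no longer called (range 3.86e-05 to 0.125).

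Genes of metal handling moved in both directions. Of 22 genes of iron, calcium, zinc and copper handling, 8 rose and 10 fell (9 and 9 on median-scaled TPM), with a median of -0.09, and the share that fell was close to the 43.7% of all genes. Slc11a2, the apical iron importer DMT1, was at 109.6, 117, 135 and 95 TPM at P14 and 21.4, 19.1, 15.2 and 15.1 TPM at P24 (log2 fold change of -2.62 with an SE of 0.14, adjusted p = 2.65e-08). Cybrd1, the iron reductase, fell by 0.70 and Slc40a1, the iron exporter ferroportin, from 218 ± 27.4 to 97.5 ± 15.8 TPM (-1.16). Hmox1, heme oxygenase, fell most, from 25.9 ± 4.28 to 2.24 ± 0.214 TPM (-3.04), and Ftl1, the ferritin light chain, from 3455 ± 312 to 842 ± 77.3 TPM (-2.04). S100g, the vitamin D dependent calcium carrier calbindin-D9k, was at 674, 768, 558 and 585 TPM at P14 and 1077, 925, 1965 and 2110 TPM at P24 (log2 fold change 1.15, adjusted p = 0.00204, range 0.000293 to 0.147), highest in P24 libraries 6 and 8, and it was not called when all 14 libraries were fitted or without the lymphocyte-rich ones. Mt1, a metal-binding protein, fell (-1.71) while Slc30a1, the zinc exporter, rose (1.26). Slc39a4, the zinc importer, passed narrowly (0.64, adjusted p = 0.048, range 0.00588 to 0.14) with overlapping groups, and the call was lost without P14 library 1, 2 or 4 or P24 library 1, 2 or 6.

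Of 18 genes of vitamin uptake and retinoids, 13 fell and 3 rose (12 and 3 on median-scaled TPM), with a median of -0.99. Folr1, the folate receptor, was at 983, 1302, 1344 and 1260 TPM at P14 and 4, 5.02, 5.04 and 5.66 TPM at P24 (log2 fold change of -7.69 with an SE of 0.12, adjusted p = 4.08e-12), and Slc46a1, the proton-coupled folate importer, fell from 51.5 ± 4.62 to 17.6 ± 4.16 TPM (-1.52). Slc23a1, the vitamin C importer, was at 39.9, 61.6, 67.5 and 62 TPM and then at 0.271, 0.225, 0.258 and 0.292 TPM (log2 fold change of -5.51 with an SE of 0.15, adjusted p = 1.47e-10). Retinoid genes divided by step. Bco1, which cleaves plant beta-carotene to retinal, rose from 0.655 ± 0.152 to 12 ± 1.18 TPM (log2 fold change of 2.97 with an SE of 0.12, adjusted p = 2.48e-09), and Aldh1a1, which makes retinoic acid, from 56.3 ± 10.6 to 213 ± 24.3 TPM (1.91). Rbp2, the carrier of retinol in the enterocyte, and Lrat, which stores it as an ester, fell (log2 fold changes -1.27 and -2.30). In the authors' own deposited test the fall of Rbp2 had an adjusted p of 0.14.

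Among enzymes that deal with foreign and toxic compounds, the main direction differed between groups. Of 14 cytochrome P450 genes, 10 rose and 1 fell (median 0.93). Cyp4f14, which oxidises leukotrienes and long-chain fatty acids, was at 21.2, 29.7, 23.2 and 20.4 TPM at P14 and 681, 722, 588 and 504 TPM at P24 (log2 fold change of 4.67 with an SE of 0.14, adjusted p = 2.93e-10). Cyp3a11, a main drug-metabolising enzyme of the proximal gut, stayed low (0.274, 1.08, 2.72 and 3.28 and 0.869, 2.21, 1.05 and 0.993 TPM, adjusted p = 0.634) and was highest in the Gata4-high libraries of each age. The one fall, Cyp2u1 (-0.51), was lost on median-scaled TPM and without P14 library 2 or 4 or P24 library 8 (range 0.00145 to 0.211). Of 25 glutathione genes, 8 rose and 14 fell (8 and 13 on median-scaled TPM), with a median of -0.52. Ggt1, which breaks glutathione down at the cell surface, was at 1.57, 2.42, 2.58 and 2.82 TPM at P14 and 278, 283, 262 and 204 TPM at P24 (log2 fold change of 6.27 with an SE of 0.14, adjusted p = 4.36e-11). Gsta2, an alpha-class glutathione transferase, went from 9.52, 27.3, 43.9 and 32.5 TPM to 0.106, 0.0951, 0.112 and 0.12 TPM (log2 fold change of -4.54 with an SE of 0.34, adjusted p = 6.22e-07), while its relative Gsta1 rose from 14.9 ± 3.33 to 39.9 ± 11.3 TPM (1.34). The division of reads among similar transferase genes is uncertain.

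Of 19 genes of aldehyde, alcohol and amine metabolism, 5 rose and 10 fell (5 and 9 on median-scaled TPM), with a median of -0.38. Akr1b7, an aldose reductase, was at 0.66, 0.558, 0.912 and 0.891 TPM at P14 and 49.6, 73.1, 68.9 and 51.6 TPM at P24 (log2 fold change of 5.12 with an SE of 0.14, adjusted p = 1.64e-10). The monoamine oxidases were exchanged: Maob fell from 46.2, 76.3, 147 and 139 TPM to 11.5, 11.2, 12.4 and 14.6 TPM (log2 fold change of -2.80 with an SE of 0.30, adjusted p = 1.12e-05) and Maoa rose from 15.8, 15.7, 17.2 and 10.6 TPM to 196, 143, 148 and 188 TPM (log2 fold change of 3.43 with an SE of 0.15, adjusted p = 7.49e-09). Neither gene had overlapping ages, and Maob at P14 was highest in the libraries high in Gata4. Akr1c19, an aldo-keto reductase, fell most (-3.11), and Aoc1, the diamine oxidase of histamine, was at 484 ± 72.1 and 519 ± 117 TPM (adjusted p = 0.676). Of 19 carboxylesterase and conjugation genes, 8 rose and 5 fell (11 and 5 on median-scaled TPM), with a median of 0.17. Ces2c and Ces2a, intestinal carboxylesterases, rose by 4.95 and 2.34, and Ephx2, an epoxide hydrolase, fell by 1.81.

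Genes of growth and matrix fell. Of 14 imprinted growth genes, 13 fell and 0 rose, with a median of -1.22, and 12 fell on median-scaled TPM. H19, a noncoding RNA, was at 96.1, 103, 108 and 68.4 TPM at P14 and 2.73, 4.25, 4.14 and 4.66 TPM at P24 (log2 fold change of -4.26 with an SE of 0.16, adjusted p = 1.94e-09), and Igf2, the fetal growth factor next to it, at 19.4, 22.7, 26.3 and 18.5 and 0.818, 1.01, 1.09 and 1.48 TPM (log2 fold change of -3.43 with an SE of 0.14, adjusted p = 2.93e-09). Cdkn1c, an inhibitor of the cell cycle, fell from 210.5 ± 28.1 to 16.6 ± 3.12 TPM (-3.59) and Plagl1, a zinc finger regulator of this group, from 6.82 ± 2.19 to 1.15 ± 0.157 TPM (-1.83). Promoters and inhibitors of growth thus fell side by side. Of 29 collagen and matrix genes, 23 fell and 0 rose (median -0.69), and 16 fell on median-scaled TPM. Fbn2, a fibrillin of early life, fell most, from 6.92 ± 2.66 to 1.65 ± 0.261 TPM (-1.53). Lox, which crosslinks collagen and elastin, fell by 0.81 (range of adjusted p 0.00226 to 0.0856, lost without the lymphocyte-rich libraries), and Eln, elastin, did not pass (23.4, 15.1, 33.5 and 15.4 and 11.1, 15.2, 17 and 19.7 TPM, adjusted p = 0.168). The 7 fibroblast markers, which include Col1a1 and Col3a1, summed to 664.1 to 1262 TPM at P14 and 419.5 to 579 TPM at P24. Without these collagens the other 5 summed to 289.9 to 558.8 TPM at P14 and 236.3 to 317.8 TPM at P24, so the ages overlapped. Their part in these falls was not tested.

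Housekeeping groups showed how far the scaling reaches. Of 76 nuclear genes of the respiratory chain, 34 rose and 5 fell (median 0.17), but 60 rose and 0 fell on median-scaled TPM, and 18 rose and 19 fell with TPM rescaled to protein-coding genes. Cox7a1, a subunit isoform of muscle, rose most (50.8 ± 6.01 to 205 ± 20.4 TPM, log2 fold change 1.99), and the largest fall, Ndufb4 (-0.40), was lost on median-scaled TPM (range 0.000537 to 0.401). Of 77 cytosolic ribosomal protein genes, 33 fell and 0 rose (median -0.31), and the share that fell was close to the 43.7% of all genes. On median-scaled TPM 2 fell and 1 rose, and 64 fell with TPM rescaled to protein-coding genes. Rpl23 fell most (-0.68). Of 21 genes of the unfolded protein response, 8 rose and 5 fell (11 and 2 on median-scaled TPM). This was a larger share of rises and a smaller share of falls than among all genes. Atf3, a stress-induced factor, rose from 16.1 ± 4.67 to 122 ± 27.2 TPM (log2 fold change of 2.87 with an SE of 0.22, adjusted p = 6.91e-07) and Ddit3, the factor CHOP, fell from 32.7 ± 3.61 to 12.1 ± 2.02 TPM (-1.37). Hspa5, the chaperone BiP, fell by 0.49 on the log2 scale, a call lost on median-scaled TPM and without P14 library 4 (range 0.000317 to 0.277), and Ern2, a stress sensor of mucus-making cells, rose by 0.56, a call lost without the 3 libraries high in Gata4 (range 8.91e-05 to 0.0785).

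A small set of genes was present at one age and nearly absent at the other. With at least 5 TPM in all 4 libraries of one age and under 0.5 TPM in all 4 of the other, 11 genes (10 protein coding) appeared by P24 and 31 (26 protein coding) were lost. The rule itself makes the ages separate, so the adjusted p-values of these genes add no support to it. All of them met the inclusion rule through one age alone. Among all genes tested, 397 did so through P14 and 151 through P24. Outside the set, Mcoln3, Tlr5 and Lrp2 did so through P14. Slc5a4a, Jchain, Nox1, Bco1, Akr1b7 and Slc13a1 did so through P24. The inclusion rule thus took these genes in through the age where they were high, and their adjusted p-values add no support either. In the set, the 6 highest that appeared were Car4, Retnlb, Arg2, Mme, Slc25a48 and Tat. Retnlb, a bactericidal protein of goblet cells, was at 0, 0.322, 0 and 0.0587 TPM at P14 and 60.8, 46.8, 64.5 and 34.3 TPM at P24. Slc25a48, a mitochondrial carrier, reached 11.6, 25.9, 13.9 and 12.3 TPM, and Tat, tyrosine aminotransferase, 8.18, 16.3, 9.23 and 26.6 TPM. Among those lost, Hyal5, a hyaluronidase, went from 78.1, 139.8, 102 and 108 TPM to 0.135, 0.155, 0.224 and 0.437 TPM (log2 fold change of -6.42 with an SE of 0.16, adjusted p = 6.03e-11). Ros1, a receptor tyrosine kinase, went from 50.6, 68.8, 71.8 and 60.0 TPM to 0.193, 0.309, 0.193 and 0.274 TPM (log2 fold change of -5.67 with an SE of 0.12, adjusted p = 2.87e-11), and F10, coagulation factor X, from 24, 37, 50.8 and 59.1 TPM to 0.122, 0.184, 0.0967 and 0.156 TPM (log2 fold change of -5.19 with an SE of 0.22, adjusted p = 4.86e-09). F10 was lowest in P14 library 1 and highest in libraries 4 and 5. Slc23a1, described above, and the unnamed genes Gm766 and Gm37867 (log2 fold changes -5.16 and -5.09) complete the 6 highest of the lost set. F10 is also a gene of hepatocytes. The 6 hepatocyte markers summed to 772 to 1213 TPM at P14 and 265.6 to 306.3 TPM at P24, but most of that was Cps1, which enterocytes make too. Without Cps1 the sum was 140.2 to 181.9 TPM at P14 and 4.81 to 9.07 TPM at P24. Most of this remainder was Ttr alone, at 127.7 to 164.9 TPM at P14 and 3.54 to 7.79 TPM at P24. Apoh was not called, and Alb stayed under 0.2 TPM in all 8 libraries. The part of these genes in the fall of F10 was not tested.

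**Figure D5:**
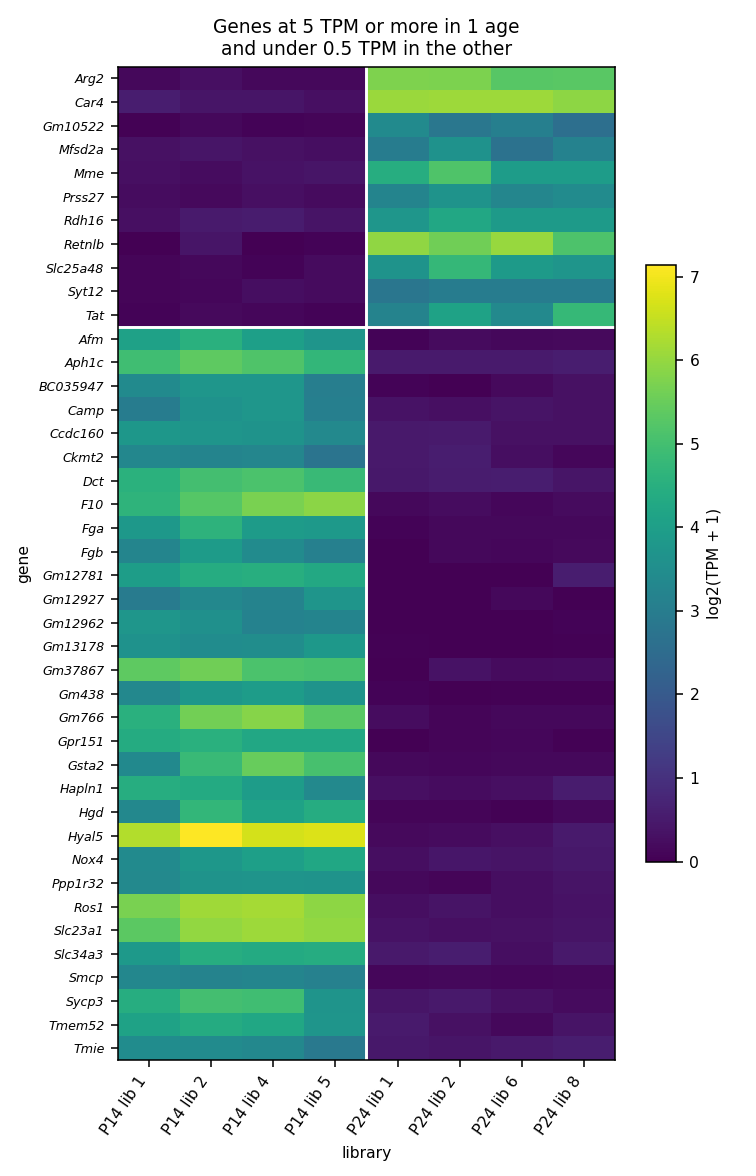
Log2(TPM + 1) of the genes with at least 5 TPM in all 4 libraries of one age and under 0.5 TPM in all 4 of the other, 1 row per gene and 1 column per library. The 11 genes above the white line appeared by P24 and the 31 below it were lost, and the rule that chose them makes the ages separate in every row.

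The largest changes with separate groups included 4 genes not yet described. Slc13a1, the sulfate importer, was at 0.799, 0.903, 0.668 and 0.659 TPM at P14 and 148, 175, 165 and 134 TPM at P24 (log2 fold change of 6.47 with an SE of 0.11, adjusted p = 4.08e-12), a 206-fold rise of the mean. As said above, Slc13a1 met the inclusion rule through P24 alone. Gpx3, a secreted glutathione peroxidase, fell from 1724, 2635, 2298 and 2380 TPM to 21.8, 29.4, 23.5 and 24.3 TPM (log2 fold change of -6.45 with an SE of 0.14, adjusted p = 2.87e-11), while its relative Gpx2 rose as described. Spp2, a secreted phosphoprotein, went from 227, 302, 286 and 284 TPM to 0.8, 1.01, 0.532 and 0.953 TPM (-7.24). Rarres1, a gene induced by retinoids, fell from 270.2, 252, 136 and 104 TPM to 1.48, 2.28, 0.964 and 1.53 TPM (log2 fold change of -6.14 with an SE of 0.28, adjusted p = 7.66e-09), with P14 libraries 1 and 2 above 4 and 5. Ranks were by log2 fold change on log2(TPM + 1), which understates changes of low genes. By ratio of means Arg2, outside the 8 largest rises, rose 328-fold and Slc10a2, within them, 82-fold. On log2(TPM + 1) the 8 largest rises of protein-coding genes were Reg3g, Sis, Saa1, Zg16, Reg3b, Slc13a1, Slc10a2 and Ggt1, and the 8 largest falls Mamdc4, Folr1, Spp2, Mcoln3, Npl, Gpx3, Hyal5 and Rarres1. Each of these 16 kept its call under all 19 alternatives. The authors' deposited table, whose values come from their own test, gave Sis a log2 fold change of 7.57 and Lct one of -6.46, and all 144 called genes examined singly here that it lists have the same sign there. It belongs to the same series, so the shared sign is not independent support. Some genes called here had an adjusted p above 0.05 in the authors' test, among them Rbp2 (0.14), Guca2b (0.405) and Cldn2 (0.961).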

How the data were processed

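The authors' deposited table holds TPM per gene symbol and library. Per the submitters' processing notes, STAR 2.4.0f, HTSeq 0.6.1p1, FastQC 0.11.2, DESeq2 1.14 and the mm10 genome were used. Nothing is stated in the sources used here on their roles, the annotation or strand handling. Values of antisense or near-identical genes are therefore uncertain. Libraries were made from total RNA after ribosomal RNA removal with a stranded kit, per the labels' protocols. The authors' deposited comparison table gives log2 fold changes and adjusted p-values with decimal commas, read as points. Columns of both ages carry library numbers that are not the labels' replicate numbers, so each was assigned to its group only.

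Of 46882 entries, 27 with symbols turned into date numbers were left out. Ages were compared on log2(TPM + 1) with limma (version 3.58.1, R version 4.3.3) and trended moderation, two-sided, adjusted by Benjamini-Hochberg over all 14651 genes, threshold 0.05. The fold changes understate changes of low genes. Whole reads (within 0.01) were recovered from the TPM to give depth and a voom alternative. The p-values set the difference between the ages against the moderated spread between libraries of the same age. Gene positions and biotypes come from GENCODE M21 (GRCm38, the same build as mm10), matched by symbol for 14102 of the genes tested, and promoter sequences from RefSeq.

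Members and lists were chosen with earlier results of these data known. Genes were named by rule: set members of each list, the largest called rise and fall per list, the 8 largest rises and falls of protein-coding genes with separate groups, the 3 highest means per age and the 6 highest genes per direction that were present at one age alone. Dpp7, Slc17a5, Aldh18a1, Nos2, Gpx2, Tlr5, Ftl1, Lrat and Maoa were chosen after their values were seen. Some genes that the rule names are not reported here. Alternatives were another pseudocount, filter, scaling, quantile normalisation, voom, all 14 libraries and each library left out.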

Additional observations from a re-analysis of the deposited data

Results flagged for a closer look

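Single libraries stood far from the other 3 of their age in 30 of 325 groups of 4 values, by a gap to the nearest value that, as a share of the group's range, passed Dixon's critical value for 4 values. Chance gives such a gap in about 1 in 20 groups.

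P24 library 2 stood apart in 7 genes. Lct was at 4.48 TPM in P24 library 2 against 1.65 to 1.89 TPM in the others, and Gata4 at 1.36 TPM in P24 library 2 against 0.145 to 0.235 TPM. Anpep was at 1890 TPM in P24 library 2 against 1156 to 1274 TPM, Npc1l1 at 348 TPM in P24 library 2 against 124 to 161 TPM and Cyp3a11 at 2.21 TPM in P24 library 2 against 0.869 to 1.05 TPM. The same library was high in Slc25a48, with 25.9 TPM in P24 library 2 against 11.6 to 13.9 TPM, and in Ctsc, with 59.5 TPM in P24 library 2 against 45.5 to 47.8 TPM. In all 7 genes it was the highest of its age.

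P14 library 5 was high in Fabp1, with 225 TPM in P14 library 5 against 0.229 to 2.29 TPM, in Zg16, with 138 TPM in P14 library 5 against 18.5 to 37 TPM, and in the noncoding Gm23935, with 121700 TPM in P14 library 5 against 36020 to 50340 TPM. P14 library 1 was low in Pglyrp1 (16.7 TPM in P14 library 1 against 20.6 to 21.3 TPM), Ces2a (8.53 TPM in P14 library 1 against 12.3 to 12.7 TPM), Vdr (9.76 TPM in P14 library 1 against 13.8 to 14.6 TPM) and Hmox1 (19.5 TPM in P14 library 1 against 27.4 to 28.5 TPM). It was high in Duoxa2 (2.23 TPM in P14 library 1 against 1.69 to 1.74 TPM) and in the noncoding Rn7sk (145300 TPM in P14 library 1 against 107300 to 111800 TPM). P14 library 4 was high in Aldh1a1 (72.1 TPM in P14 library 4 against 49.3 to 51.9 TPM) and Igha (2.54 TPM in P14 library 4 against 1.07 to 1.32 TPM).

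P24 library 1 carried the Y-linked RNA of its age: Ddx3y was at 16.8 TPM in P24 library 1 against 0.0215 to 0.0677 TPM, Uty at 10.7 TPM in P24 library 1 against 0.029 to 0.0343 TPM, Eif2s3y at 19.1 TPM in P24 library 1 against 0.0538 to 0.0846 TPM and Kdm5d at 5.12 TPM in P24 library 1 against 0.0029 to 0.0148 TPM. It was also high in Jchain (34.8 TPM in P24 library 1 against 6.84 to 11.1 TPM), Pglyrp1 (101 TPM in P24 library 1 against 83 to 85.6 TPM) and Asl (11.3 TPM in P24 library 1 against 9.64 to 9.89 TPM) and low in Vdr (42.1 TPM in P24 library 1 against 47.1 to 47.8 TPM). P24 library 8 was low in Guca2b (501 TPM in P24 library 8 against 539.7 to 546 TPM), Slc40a1 (74 TPM in P24 library 8 against 104 to 108 TPM) and Car4 (59.2 TPM in P24 library 8 against 66.2 to 67.4 TPM), and P24 library 6 was high in Apobec1 (42 TPM in P24 library 6 against 36 to 36.3 TPM).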

How the results depend on the processing

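On the deposited scale 8546 genes were called, and leaving out 1 library at a time gave 7450 to 8942, with 1923 to 2272 higher and 5452 to 6992 lower at P24. The direction of calls moved with the scaling: against 2146 higher genes, 4200 were higher on median-scaled TPM, 4041 with quantile normalisation and 4246 with limma voom on recovered reads, and against 6400 lower genes, 4202 were lower on median-scaled TPM and 4264 with voom. The median log2 fold change of all genes was -0.25, 0.01 on median-scaled TPM and -0.42 with TPM rescaled to protein-coding genes. Of 145 called genes examined singly, 128 kept the call under all 19 alternatives and 0 reversed. Alternatives chosen after seeing the data were the Xist covariate, TPM rescaled to protein-coding genes, and leaving out the lymphocyte-rich libraries or the 3 libraries with Gata4 above 1 TPM. No paired analysis was possible because the columns carry library numbers other than the labels' replicate numbers. Genes with few reads are the least certain, since 811 genes met the inclusion rule in exactly 4 libraries and 511 missed it with 3.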
